A study of Mus musculus with 5 samples.

Results

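Apolipoproteins are the protein coats of plasma lipoproteins, and the liver secretes most of them. APOB is the scaffold of very low density lipoprotein particles, and APOA1 and APOA2 are the main proteins of high density lipoprotein. Other exchangeable members, among them APOC1, APOC3, APOE and APOA5, set how fast lipase and liver receptors clear triglyceride-rich particles. Their genes are strongly transcribed in hepatocytes under liver-enriched factors and nuclear receptors, and several lie side by side in gene clusters. Of the 10 apolipoprotein genes listed for this description (Apoa1, Apoa2, Apoa5, Apob, Apoc1, Apoc3, Apoe, Apof, Apoh and Apom), 8 had a probe on the array by gene symbol, with 9 probes among 20355. No probe carried the symbol Apob or Apoc3 (2 genes), so the particle scaffold and the lipase inhibitor APOC3 were not analysed here.

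The data came from livers of 5 male mice, 17 weeks old and labelled Pitx3eyl-/-, which are homozygous for the eyeless allele of the homeodomain transcription factor gene Pitx3. On every array 1 mutant animal was hybridised with a common pool of wild-type RNA, so that there are 5 arrays, no single wild-type animal and 1 control sample; the sources used here do not state the age and sex of the pooled animals. The sample labels give 4 mice in the pool and the labelling protocol gives 6, and the labels do not say which of these holds. Replicates 1, 2 and 4 had the mutant in Cy5 and the pool in Cy3, and replicates 3 and 5 were dye swaps with the mutant in Cy3. Every value below is a log2 ratio of the 2 channels as deposited, read as mutant over pool, so that -1 is a level in the mutant of 50% of the pool. That direction is likely rather than known, and it rests for replicates 3 and 5 on the sign of a code for unmeasurable spots, which is described with the processing. Other values differ by dye orientation under this reading: over all probes, all 6 pairs of arrays of opposite orientation had a negative Pearson r (-0.26 to -0.051) and 3 of the 4 pairs of like orientation a positive one (-0.024 to 0.11), and by limma 7.38% of probes had a dye coefficient with p below 0.05 before adjustment, against 4.16% for the mutant coefficient. Probes are not independent replicates, and dye effects and an unturned sign cannot be told apart from these values. Results are therefore also given with the sign of replicates 3 and 5 turned, where that changes them. A level of RNA cannot be read from such a ratio, and in whole liver fewer hepatocytes and less RNA per hepatocyte cannot be told apart. Each animal has 1 array, so differences between animals and between hybridisations cannot be told apart either.

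Of the 9 probes, 7 had values on all 5 arrays and entered the test, which fits a mutant coefficient (the log2 ratio with both dye orientations weighted equally) and a dye coefficient. The second Apoa5 probe, with 2 arrays, and Apoa2, with 3 arrays, did not. No apolipoprotein probe was called different from the pool: limma called 0 of 7 after adjustment over 11300 probes, where it called 0% of all probes. At an unadjusted p under 0.05 there were also 0 of 7, against 4.16% of all probes (2.35% above and 1.81% below 0). The 95% interval included 0 for all 7 probes. The coefficients lay between -1.55 for Apoa1 and 0.28 for Apoc1, and their intervals overlapped along the whole order, which ran Apoa1, Apom, Apoa5, Apoe, Apof, Apoh, Apoc1. With replicates 3 and 5 turned, the order was Apoa1 (-0.48), Apoe (-0.070), Apom (-0.027), Apoa5 (0.0061), Apoh (0.042), Apoc1 (0.25) and Apof (0.36), and limma again called 0 of 7.

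The upstream sequences of 4 of these genes are shown here. As deposited, Apoe and Apom were the members with values below 0 on every array, Apoa5 was below 0 on 4 of 5 arrays, and Apoa1 varied widely between arrays. With replicates 3 and 5 turned, 0 members were below 0 on every array. The genes were thus picked by their values, and a link between motifs and values was not tested. Promoter sequences came from RefSeq (GRCm38.p6), where 6 of the 8 genes with a probe matched; Apoc1 and Apof are named only. It lists 3 starts for Apoe, 2 for Apoa5, 2 for Apoa2 and 1 for each of the others. Only the outermost start of a gene was searched, and which start is used in liver was not tested. Each sequence is the 150 bases before the outermost listed start site, 5′ to 3′ on the strand of the gene: Apoe at chr7:19699189-19699338 on the minus strand, Apom at chr17:35131802-35131951 on the minus strand, Apoa5 at chr9:46268458-46268607 on the plus strand and Apoa1 at chr9:46228480-46228629 on the plus strand. Capitals mark GGGTCA, a nuclear receptor half-site, and TATAAA, the core of a TATA box, on either strand.
Apoe: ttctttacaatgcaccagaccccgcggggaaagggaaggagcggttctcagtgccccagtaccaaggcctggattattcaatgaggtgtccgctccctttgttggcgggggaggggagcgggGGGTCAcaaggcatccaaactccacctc
Apom: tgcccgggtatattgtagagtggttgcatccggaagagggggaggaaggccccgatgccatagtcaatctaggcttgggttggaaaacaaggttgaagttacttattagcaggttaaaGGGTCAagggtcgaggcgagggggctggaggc
Apoa5: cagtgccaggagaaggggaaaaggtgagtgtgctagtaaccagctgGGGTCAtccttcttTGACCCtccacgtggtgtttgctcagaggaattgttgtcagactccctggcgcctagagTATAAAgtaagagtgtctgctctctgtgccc
Apoa1: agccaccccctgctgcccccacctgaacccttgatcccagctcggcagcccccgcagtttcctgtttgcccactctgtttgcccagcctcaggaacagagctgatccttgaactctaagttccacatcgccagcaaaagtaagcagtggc
Both strands of the 250 bases before the start were searched for these motifs and for AGGTCA, the other common form of the half-site, and no matches overlapped in the 6 genes. GGGTCA occurred once in Apoe, 28 bases before the start, and at 156 and 32 bases before it in Apom. In Apoa5 it occurred at 104 bases before the start and, on the opposite strand, at 90 bases, with TATAAA at 31 bases. AGGTCA was present in Apoh and Apoa2, and Apoa1 held none of the 3. Over all 32851 promoter windows of this length, in which a gene with several starts counts more than once, the half-site form GGGTCA was present in 11.7%. Its form AGGTCA was present in 14.0%, either form in 23.85% and the box TATAAA in 12.4%. These matches describe letters, and no binding was measured.

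**Figure D1:**
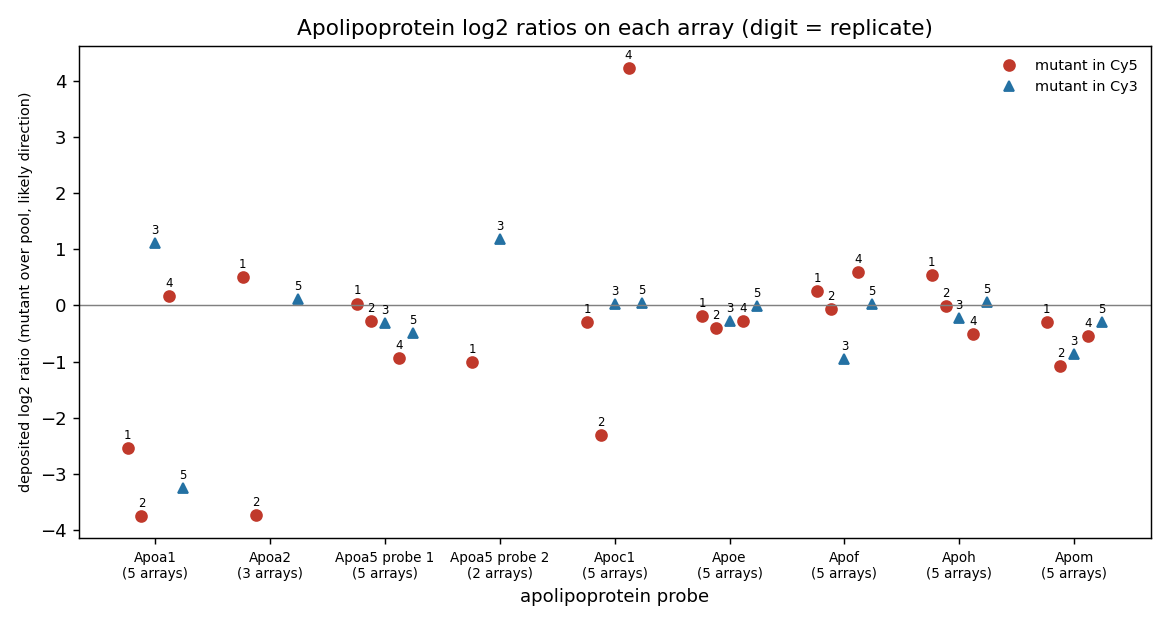
Deposited log2 ratio (vertical axis) of each of the 9 apolipoprotein probes (horizontal axis) on each array; circles are arrays with the mutant in Cy5, triangles with the mutant in Cy3, and the digit is the replicate. Apoe stays between -0.40 and -0.014, while Apoc1 runs from -2.31 to 4.22 and Apoa1 from -3.75 to 1.10.

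Among the proteins of high density lipoprotein, Apoa1, which encodes its main structural protein and the activator of the cholesterol-esterifying enzyme LCAT, had log2 ratios of -2.53, -3.75, 1.10, 0.17 and -3.24 on replicates 1 to 5. The arrays thus fell far apart, with 3 values well below 0 and 2 above it, and each side held arrays of both dye orientations. The mutant coefficient was -1.55 ± 0.87 (limma SE, n = 5; unadjusted p 0.132, adjusted p 0.999), a fold of 0.341 with an interval from 0.0738 to 1.57. Leaving out 1 array moved it from -2.64 without replicate 3 (unadjusted p 0.0338, adjusted p 1.0) to -0.47 without replicate 5. With replicates 3 and 5 turned it was -0.48 ± 0.87. Its SD over arrays, 2.16, was larger than that of 91.5% of the 6364 probes measured on all 5 arrays.

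Apoa2, the gene of the other abundant protein of these particles, was measured on replicates 1, 2 and 5, at 0.51, -3.73 and 0.11. Replicate 2 stood far below the other 2 arrays. It also gave the lowest value of Apoa1, where replicates 1 and 5 were low as well. When 3 arrays were allowed in the fit, Apoa2 had a coefficient of -0.75 ± 1.13 (limma adjusted p 1, n = 3). That fit has 1 residual degree of freedom and its interval runs from -4.14 to 2.64.

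Apom encodes the lipocalin of high density lipoprotein that carries sphingosine 1-phosphate. Its values were -0.29, -1.08, -0.86, -0.54 and -0.30 on replicates 1 to 5. All 5 values lay below 0, and they stayed below after each array was centred on its median, between -1.04 and -0.098. The mean was -0.63 over the Cy5 arrays and -0.58 over the Cy3 arrays, with a dye coefficient of -0.027 ± 0.29. The mutant coefficient was -0.61 ± 0.29 (limma SE, n = 5), a fold of 0.657 with an interval from 0.396 to 1.09. Its unadjusted p of 0.0868 was the lowest among the apolipoproteins, and 7.63% of all tested probes had a p as low or lower; the adjusted p was 0.999. With the sign of the Cy3 arrays turned, the coefficient was -0.027. Apof encodes a minor lipoprotein component known as lipid transfer inhibitor protein. Its values were 0.25, -0.072, -0.95, 0.59 and 0.031 on replicates 1 to 5, with replicate 3 alone far below 0. The coefficient was -0.10 ± 0.30 (limma adjusted p 0.999, n = 5), and without replicate 3 it was 0.14.

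Apoe encodes the ligand by which lipoprotein remnants bind the LDL receptor family. Its log2 ratios were -0.19, -0.40, -0.28, -0.27 and -0.014 on replicates 1 to 5. All 5 values stood slightly below 0 and close to each other. On replicate 1 the value equals the array's median and the constant derived from its code (both -0.189). With that constant taken off it is a ratio of 1 to 1, so it is not read as a lower level in the mutant. The constants of replicates 2 to 5 were -0.33, -0.15, 0.46 and -0.080. With these taken off as well, the value on replicate 5 would lie above 0, and those on replicates 2, 3 and 4 below it. The value on replicate 4 would then lie further below 0 than as deposited, so the closeness of the values holds for the deposited ratios only. The SD over arrays was 0.143, and 0.770% of probes measured on all 5 arrays had a smaller one; with replicates 3 and 5 turned, the SD was 0.267 and that share 7.10%. The mutant coefficient was -0.22 ± 0.26 (limma SE, n = 5; adjusted p 0.999), a fold of 0.860 with an interval from 0.547 to 1.35. This error is wider than the 0.064 that the 5 values alone give as SE of their mean, since limma draws the variance of every probe towards that of all probes. After centring, the value on replicate 1 was 0 and 4 of 5 arrays lay below the array median. Below 0 on all 5 arrays were thus 2 of 7 apolipoprotein probes (Apoe and Apom), against 2.34% of all probes measured on 5 arrays. This count uses deposited values and includes those of Apoe on replicates 1 and 5, which are not below 0 with the constants taken off. With replicates 3 and 5 turned there were 0 of 7, against 4.68%. Below the array median on all 5, as deposited, was 1 of 7 (Apom), against 1.95%. Above 0 on all 5 arrays were 0 of 7, against 3.65%.

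Kupffer cells, the macrophages of the liver, also transcribe Apoe. Of the 13 macrophage markers listed, 9 had a probe and 3 were tested, with coefficients from -0.54 to 2.41, 1 above and 2 below 0, and limma called 0. The lysozyme gene Lyz2 stood at -0.54 ± 0.40 and the cathepsin gene Ctss at 2.41 ± 0.48, the latter with 3.94 on replicate 3, its only Cy3 array, and 0.23 to 1.78 on the others. With replicates 3 and 5 turned, Lyz2 was at -0.42 and Ctss at -1.53. The part of macrophage content in the Apoe values was not tested.

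Apoc1, the neighbour of Apoe in the genome with 0 annotated genes between them, encodes a small exchangeable apolipoprotein that slows remnant uptake. Its values were -0.30, -2.31, 0.017, 4.22 and 0.043 on replicates 1 to 5. On 3 arrays the values were near 0, while replicate 2 lay far below it and replicate 4 far above. The coefficient was 0.28 ± 0.98 (limma adjusted p 0.999, n = 5), with an interval from 0.219-fold to 6.75-fold. It was -0.64 without replicate 4 and 0.99 without replicate 2. The Apoe value minus the Apoc1 value ran from -4.49 on replicate 4 to 1.91 on replicate 2, with Apoe higher on 2 arrays and lower on 3. The genes of this pair thus differed by under 0.30 on replicates 1, 3 and 5 and by far more on the other 2 arrays.

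Apoa5 encodes a scarce plasma protein that promotes triglyceride clearance by lipoprotein lipase. The first probe gave 0.034, -0.27, -0.31, -0.94 and -0.50 on replicates 1 to 5. The values lay near or below 0, with 4 of 5 below it. The coefficient was -0.40 ± 0.29 (limma unadjusted p 0.225, adjusted p 0.999, n = 5), a fold of 0.758 with an interval from 0.455 to 1.26, and the dye coefficient was 0.0061 ± 0.29. The second probe of the gene gave -1.0 on replicate 1 and 1.18 on replicate 3, with 1 value on each side of 0, and did not share the values of the first on these arrays. Apoa1 lies in the same cluster, with Apoc3 and Apoa4 (2 genes) between it and Apoa5. Apoa1 minus Apoa5 ran from -3.48 to 1.42 and was negative on 3 arrays and positive on 2.

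Apoh encodes beta-2-glycoprotein I, a phospholipid-binding plasma protein of the liver. Its values were 0.55, -0.012, -0.22, -0.51 and 0.062 on replicates 1 to 5. The values lay on both sides of 0, and none was over 2-fold away from the pool. The coefficient was -0.036 ± 0.30 (limma adjusted p 0.999, n = 5), the smallest in size of the 7 as deposited. Its interval of 0.580-fold to 1.64-fold leaves room for changes of that size in either direction.

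**Figure D2:**
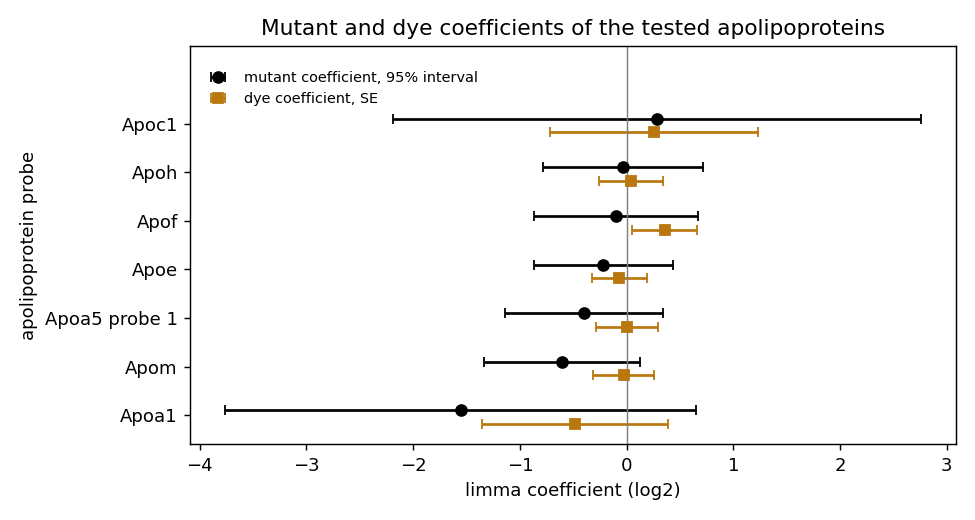
Mutant coefficient with its 95% interval (black circles) and dye coefficient with its SE (squares) of the 7 tested apolipoprotein probes (vertical axis), on the log2 scale (horizontal axis). All 7 intervals of the mutant coefficient include 0, and 6 of 7 coefficients lie below 0.

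By direction, 6 of the 7 mutant coefficients were below 0 and 1 above, with a median of -0.22, where 46.1% of all 11300 tested probes were below 0 and their median was 0.040. Centring the arrays moved the median over all probes to 0.0024 and that of the apolipoproteins to -0.26, with 6 of 7 still below 0. The count was 4 of 7 without replicate 3 and 3 of 7 with the Cy3 arrays turned. The dye coefficient was above 0 for 4 and below 0 for 3 of the probes, and for 2 of them, Apof and Apoh, its size exceeded that of the mutant coefficient. Its unadjusted p in limma was under 0.05 for 0 of 7, against 7.38% of all probes, and its size was greatest for Apoa1, at -0.48 ± 0.87.

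On single arrays, the median of the 7 probes was -0.19, -0.40, -0.28, -0.27 and -0.014 for replicates 1 to 5. The medians of all probes were -0.19, -0.035, -0.0020, 0.11 and 0.23. The apolipoprotein median was thus equal to that of the array on replicate 1 and 0.24 to 0.39 lower on the others. The probes with values on all 5 arrays, as these 7 have, had medians of 0.11, -0.0040, -0.046, -0.089 and 0.10, all above those of the apolipoproteins. With replicates 3 and 5 turned, the medians of these arrays change sign, and that of the apolipoproteins is then the higher on both. The apolipoprotein median is on every array the value of Apoe alone. On replicate 2 all 7 probes were below 0, on replicate 3 there were 5, and on each of the other arrays 4. The lowest member was Apoa1 on replicates 1, 2 and 5, Apof on replicate 3 and Apoa5 on replicate 4. The highest was Apoh on replicates 1, 2 and 5, Apoa1 on replicate 3 and Apoc1 on replicate 4, so Apoa1 was at either end on 4 of the 5 arrays.

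In spread over arrays the probes formed a narrow and a wide set. Apoe (SD 0.143), Apom (0.349), Apoa5 (0.360), Apoh (0.391) and Apof (0.574) lay below the median SD of all probes measured on 5 arrays, 0.705, and Apoa1 (2.16) and Apoc1 (2.38) lay above the upper quartile, 1.28. With replicates 3 and 5 turned, Apom (0.750) lay above the median SD, then 0.708, and the other 6 kept their side of it. All 5 values were within 2-fold of the pool for 4 of 7 probes, against 40.8% of all probes. Over single values, 28 of 35 (80.0%) were within 2-fold, against 76.9% over all probes measured on 5 arrays. The typical difference between 2 probes over the 5 arrays (root mean square) was 0.39 for the closest pair, Apoa5 and Apoe, and at most 0.79 in the 10 pairs without Apoa1 or Apoc1. In the 11 pairs with either of them it was at least 1.97, and it reached 2.70 for Apoa1 and Apoh. Apoa1 and Apoc1 also differed from each other, by 2.66.

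**Figure D3:**
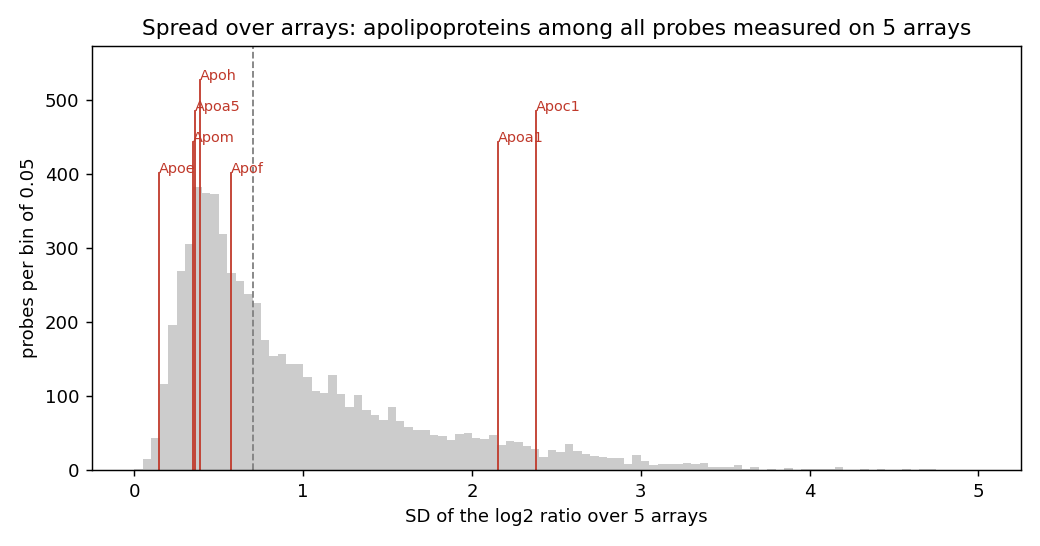
Histogram of the SD of the log2 ratio over 5 arrays (horizontal axis) for the 6364 probes with 5 values (vertical axis, probes per bin), with the median of 0.705 dashed and the 7 apolipoprotein probes as vertical lines. Apoe is near the low end at 0.143, and Apoa1 (2.16) and Apoc1 (2.38) lie in the upper tail.

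The median profile of the apolipoproteins was the profile of Apoe itself, which held the middle value on each of the 5 arrays. Outside the family, the named probes nearest to it over the 5 arrays were Sardh, the mitochondrial sarcosine dehydrogenase (root mean square difference 0.078), Blvrb, a biliverdin reductase (0.080), and Clu (0.091), which encodes clusterin, itself also called apolipoprotein J. Clu had -0.16, -0.23, -0.21, -0.23 and 0.040 on replicates 1 to 5. The other 2 probes of Sardh measured on all arrays were 0.19 and 0.51 away.

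With the constant of its array taken off, a value can also lie at a ratio of whole numbers up to 20, within 0.001. This is the case for 20.1% to 29.6% of the values of an array. Some values can meet this rule by position alone, and that share was not computed. The matches are therefore not read as a property of the spots. Of the 40 apolipoprotein values, 12 did so: 4 of the 5 values of Apof, 2 of Apoe, and 1 each of Apoa1, Apoa2, both Apoa5 probes, Apoh and Apom, with 0 for Apoc1. None of the 9 probes carried the code for an unmeasurable spot (0 values). Without the whole-number values Apoe and Apof left the test, and the median of the remaining 5 probes was -0.51. That median is the value of Apoa5, which lost its value on replicate 1. The Apoa1 coefficient was then -2.64 (limma unadjusted p 0.0340, adjusted p 0.998). Its only whole-number value is on replicate 3, so this coefficient rests on the same 4 arrays as the one without replicate 3. It is not a second, separate result.

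The genes around the apolipoproteins were read from 6 lists by role, with 117 genes, of which 51 were tested. limma called 0 of them, and 0 had an unadjusted p under 0.05, against 4.16% of all probes; 19 were above and 32 below 0, with a median of -0.058. With replicates 3 and 5 turned the counts changed places, at 32 above and 19 below 0, so no direction is read from them. In lipoprotein assembly and secretion, 4 of 7 tested genes were above and 3 below 0 (median 0.0055). Surf4, a cargo receptor of the endoplasmic reticulum that helps export lipoproteins, had -0.50 ± 0.29, and its other probe 0.09. Dgat2, which makes triglyceride, had 0.52 ± 0.43, and Mttp, the transfer protein that loads lipid onto APOB, had -0.38.

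The list headed plasma lipases, transfer and high density lipoprotein enzymes had 7 of 7 tested genes below 0, with a median of -0.35. The tested genes were Lpl, Pon1, Pon2, Angptl4, Lmf1, Pafah1b1 and Pla2g7. Not all of them encode plasma lipases or enzymes of these particles, so the count is not one of such enzymes alone. Lipoprotein lipase, Lpl, had -0.71 ± 0.31 on the probe taken (limma unadjusted p 0.0719, n = 5), with values from -1.43 on replicate 3 to 0.084 on replicate 1, but another probe of Lpl had a coefficient of 1.41. Pon1, the paraoxonase bound to high density lipoprotein, had -0.69 ± 0.49, with -1.98 and -1.59 on replicates 4 and 5 and 0.51 on replicate 2. Leaving out 1 array gave 5 to 7 genes below 0. With the probes of a gene averaged there were 5 of 7, with a median of -0.022, and with the Cy3 arrays turned there were 3 of 7.

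Of the receptor and endocytosis genes, 6 of 8 were below 0 (median -0.049), against 1 of 8 (median 0.26) with replicates 3 and 5 turned, 3 of 8 without replicate 4 and 3 of the 6 still tested without replicate 5. The scavenger receptor gene Stab1 had 0.86 ± 0.42 and a dye coefficient of -1.33, larger in size. Lipa, the lysosomal lipase that breaks down the lipids of endocytosed particles, had -1.67 ± 0.93, with -4.85 on replicate 3 and -1.79 to 0.018 on the others. The receptor gene Lrp1 stood at -0.00042. Of the genes listed as cholesterol and phospholipid exporters, 4 of 7 were below 0 (median -0.028). This list also held Osbpl1a, Stard3 and Abcb11. Abca3 was at 0.33 ± 0.29. The bile phospholipid pump gene Abcb4 was at 1.42 ± 1.01, ran from -2.86 to 3.68 and has 1 array in Cy3.

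Transcription factors that act on apolipoprotein genes had 7 of 13 above and 6 below 0 (median 0.047). Prox1 had -0.45 ± 0.40 and the bile acid receptor gene Nr1h4 0.40 ± 0.40. Ppara, the fatty acid sensing receptor, had 0.097 and Nr1h3, the liver X receptor that senses oxysterols, -0.058. The list of other apolipoproteins and small plasma proteins had 6 of 9 below 0 (median -0.065). It also held Ttr, Hpx and Rbp4, which are not apolipoproteins. The median is the value of Hpx, and Ttr and Hpx are among the hepatocyte markers below as well. Apoa4, from the cluster that holds Apoa1 and Apoa5, had 0.58, -0.036, 0.65, 1.04 and 0.39 on replicates 1 to 5 and a coefficient of 0.52 ± 0.30, with 4 of 5 arrays above 0; its other probe had 0.03. Rbp4, the retinol carrier, had 0.95 ± 0.85, with 4.83 on replicate 4 and -0.85 to 0.22 on the others.

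**Figure D4:**
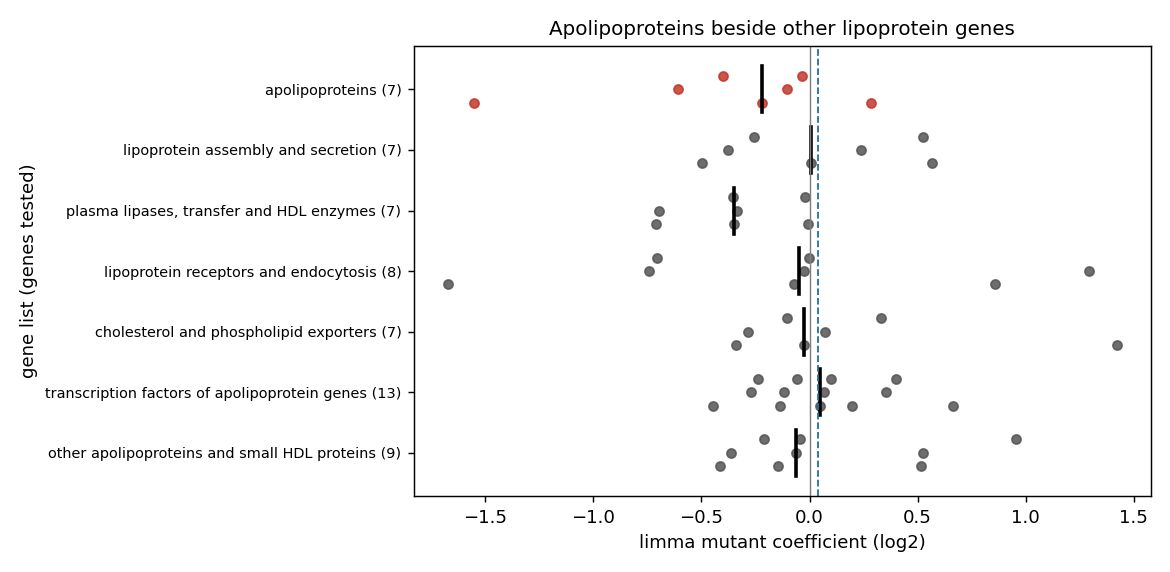
Mutant coefficient on the log2 scale (horizontal axis) of the tested genes of the apolipoproteins and 6 related lists (vertical axis); each point is 1 gene, black bars are list medians and the dashed line is the median of all tested probes, 0.040. The apolipoprotein median is -0.22 and the medians of the other lists run from -0.35 to 0.047.

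The liver label was set against hepatocyte markers. Of 14 listed, 11 had a probe and 10 of these were tested, against 64.4% of all named genes; 6 were below 0 and 4 above, with a median of -0.055. Tat, tyrosine aminotransferase, had -0.78 ± 0.27 (unadjusted p 0.0330 in limma, adjusted p 0.999) and Trf, the iron carrier, 1.13 ± 0.49. Markers of other cells gave medians from -0.29 for endothelial cells to 0.90 for bile duct cells, with 2 to 6 tested genes each apart from intestine, which had 1 (Apoa4); limma called 0 genes in each list. Of all 34 marker genes tested, Tat, Ctss (0.0063) and Car2 (0.0362) had an unadjusted p under 0.05 (3 of 34, 8.82%, against 4.16% of all probes), and Ctss had a dye coefficient of -1.53 (unadjusted p 0.0302). Erythroid markers had 4 of 4 above 0 (median 0.71, Car2 at 0.97 ± 0.35 and Car1 at 1.74 ± 0.87), and bile duct markers 3 of 3 (Sox9 at 0.90 ± 0.45 and Cftr at 1.17 ± 0.59). Of all tested probes, 46.1% were below 0. With replicates 3 and 5 turned, Car2 was at -0.36, Car1 at -0.00725, Sox9 at 0.0465 and Cftr at 0.85. Under the same turn Tat was at 0.38, Trf at -0.53 and Ctss at -1.53. Car2, Car1, Tat, Trf and Ctss thus change sign, and Sox9 and Cftr do not. Stellate cell genes included Dcn at -0.40 ± 0.27 and Reln at 0.29 ± 0.45, endothelial genes Eng at 0.72 ± 0.43 and Kdr at -0.63 ± 0.49, pancreas genes Ctrb1 at 0.046 ± 0.31 and Pnliprp1 at -0.0052 ± 0.59, and adipose genes Adipoq at 1.13 ± 0.81 and Fabp4 at 0.028 ± 0.31. The adipose pair differed by dye, with dye coefficients of -3.05 for Adipoq (limma unadjusted p 0.0118) and -1.95 for Fabp4 (0.0012). Fabp4 was below 0 on the 3 Cy5 arrays and above 0 on both Cy3 arrays, and with the latter turned it lay between -2.38 and -1.41 on all 5. Their part in the apolipoprotein values was not tested.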

How the data were processed

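Liver RNA of 5 mutant mice was hybridised on 2-colour cDNA arrays against a wild-type pool. The deposited values are log2 ratios, 20355 probes per array; scale and steps were read from the values, and how the authors corrected background or normalized was not given in the sources used here. Values over 12 in size (80 to 213 per array, identical within an array) were set to missing. They were taken as a code for a ratio of 100000, and the constant of each array was derived from that assumption. This code was positive where the mutant was in Cy5 and negative in Cy3, so arrays 3 and 5 were taken to be turned already; mutant over pool is likely, not known, and correlations between arrays and the dye coefficients leave this unsettled. Measured values numbered 13576 to 15892 per array, and 5 arrays limit the precision.

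limma 3.58.1 (R 4.3.3, lmFit and eBayes) modelled mutant and dye effects for probes with at least 4 arrays and both orientations. The fit was also run on simulated data with changes far larger than the apolipoprotein coefficients. That run does not show whether changes of their size would be found. Calls needed a Benjamini-Hochberg adjusted p under 0.05 over all probes. Intervals are 95%. The pool is 1 control sample, so wild-type animals contribute no spread. Gene symbols came from the platform annotation (14030 probes with 1 symbol, 5 with several, 6320 unnamed here; 9930 genes), and single probes could not be checked against their names. Named genes were all members with a probe, the 2 tested genes of lowest p in each list (a gene by its probe with most arrays), and the 3 probes nearest the members' median; Mttp, Lrp1, Ppara and Nr1h3 were added for their roles, after their values were seen. Some other list members are named only to show what a list held. Members, lists and motifs were chosen with earlier results of these data known. Alternatives changed centring, scaling, dye term, filters, averaging, codes, whole-number values (up to 20, within 0.001), orientation, variance model and arrays. No value column was left unused (0).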

Additional observations from a re-analysis of the deposited data

Results flagged for a closer look

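Of the 38 probes chosen by the naming rule with values on 4 or 5 arrays, 3 had 1 array far from the others by Dixon's criterion, which chance meets in about 5% of such groups; none of the apolipoprotein probes was among them. Genes named outside that rule, such as Mttp, Lrp1, Ppara and Nr1h3, were not checked. Surf4 had -1.23 on replicate 3, against -0.36 to -0.019 on the other arrays. The pancreatic gene Pnliprp1 had -2.92 on replicate 4, against 0.24 to 0.98. Clu, one of the probes nearest to the apolipoprotein median, had 0.040 on replicate 5, against -0.23 to -0.16.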

How the results depend on the processing

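limma called 0 probes for the mutant coefficient and 0 apolipoprotein probes under the reported setting and all 15 alternatives; for the dye coefficient it called 0 under each one that fits it. The count of probes at an unadjusted p under 0.05, 470 as reported, was 242 with values on all 5 arrays, 264 with probes averaged, 271 without whole-number values, and 834 with the Cy3 arrays turned; without 1 array it ran from 482 to 796, the latter without replicate 1. The apolipoprotein median of -0.22 was -0.51 without whole-number values (5 probes), 0.0061 with the Cy3 arrays turned, and -0.35 to -0.15 without 1 array. Over 103 recomputed coefficients of the 7 probes, 96 kept their sign and 7 did not. With the Cy3 arrays turned, Apoa5 was at 0.0061, Apof at 0.36 and Apoh at 0.042. Without replicate 3, Apof was at 0.14 and Apoh at 0.034, and without replicate 4, Apoc1 was at -0.64 and Apoh at 0.095; without 1 array Apof ran from -0.35 to 0.14, Apoh from -0.17 to 0.095 and Apoc1 from -0.64 to 0.99. The cause was not tested. The count of probes below 0, recomputed under each setting after seeing the data, was 3 of 7 with the Cy3 arrays turned and otherwise 4 to 6. No paired analysis was possible because there is 1 group and each array already sets an animal against the pool. Apoe and Apof had too few values for the fit without whole-number values, and signal over background is not given in the sources used here.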
